A study of Zea mays with 48 samples.

Results

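Hand-collected maize embryos at 13 days after pollination (DAP) were compared with those at 11 DAP in reciprocal hybrids of the inbred lines B73 and Mo17. BM embryos grew on B73 ears pollinated with Mo17, and MB embryos on Mo17 ears pollinated with B73. The 12 libraries, chosen by title from the 48 of the series, were 3 BM and 3 MB libraries at 13 DAP and 3 BM and 3 MB libraries at 11 DAP. The other libraries hold younger embryos, laser-captured embryos and endosperm. Each library was a pool of embryos from several ears. Nothing states separate plantings, so the p-values measure the spread between pools, and the embryos of the 2 crosses differ in the plant and cytoplasm that carried them.

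At these ages the maize embryo has laid down its shoot and root poles and its scutellum, the organ that later fills with oil, globulins and some starch. Around it the endosperm stores starch and zeins. The basal transfer layer of the endosperm takes up sugar from the mother plant, and a thin embryo-surrounding region lines the cavity from which the embryo is picked. In pooled tissue of this kind, fewer cells of a type and less RNA per cell cannot be told apart.

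The libraries held 12642929 to 21698127 counts over 39656 gene models, of which 21774 were abundant enough to test. The first principal component carried 47.4% of the variance and placed the 3 MB libraries at 13 DAP at 46.1 to 65.3, against -36.9 to 0.6 for the other 9. The second, with 18.1%, divided the crosses. The third BM library at 11 DAP stood apart from its own group: its nearest library was the second BM library at 13 DAP, whereas each of the other 11 was nearest to a library of its own group. The count within BM and the leading genes called there are therefore given with and without it.

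**Figure D1:**
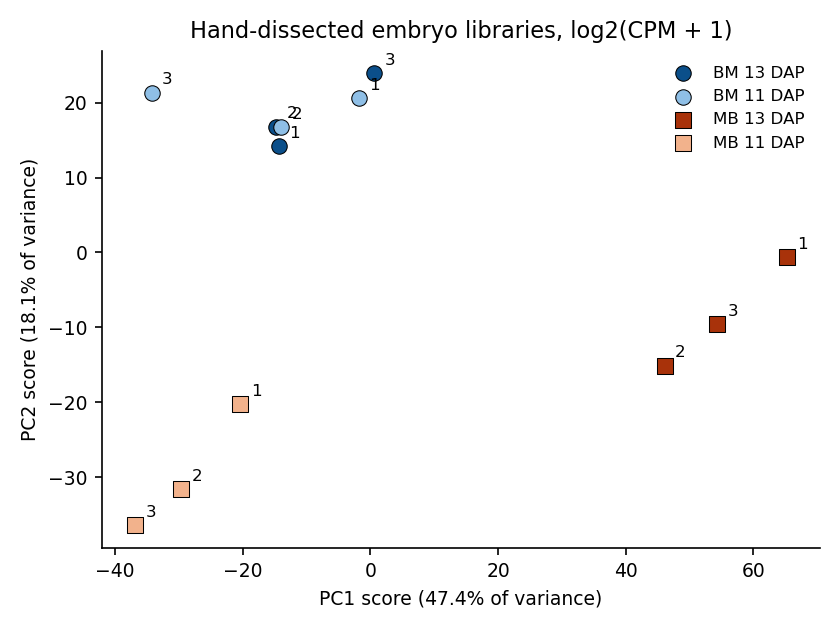
Each point is 1 library, placed on the first and second principal components of log2(CPM + 1), with its replicate number beside it and its cross and age by colour. The 3 MB libraries at 13 DAP lie at 46.1 to 65.3 on the first axis, apart from the other 9.

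With both crosses together and the cross as an additive term, 1394 genes differed between 13 and 11 DAP at an adjusted p under 0.05 (edgeR's quasi-likelihood test, Benjamini-Hochberg adjustment), which is 6.4% of the genes tested. Of these, 782 were higher (3.59%) and 612 lower (2.81%) at 13 DAP, and with a log2 fold change of 1 or more 34 were higher (0.156%) and 165 lower (0.758%). Taken as the average of the separate changes in BM and MB, with 1 mean per group, 5640 genes (25.9%) differed. The higher genes with a known role included MCM6 and MCM7, subunits of the helicase that opens DNA for replication, the iron store ferritin (fer1), the embryo globulin glb2, the ADP-glucose pyrophosphorylase Agp2 and the chaperone Hsp70. The lower ones included the beta zein bz15, the gamma zein gz16, the ribonucleotide reductase subunit RNRS2, the tubulin TUB8 and the cyclin gene cyclin8.

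Ferritin had 171, 178 and 166 CPM (counts scaled to an equal library total) in BM embryos and 172, 197 and 201 CPM in MB embryos at 13 DAP, against 107, 111 and 136 CPM in BM and 65.9, 68.1 and 77 CPM in MB at 11 DAP. All 6 libraries at 13 DAP were above all 6 at 11 DAP, and the joint log2 fold change was 1.03 ± 0.15 (SE, adjusted p = 0.015). TUB8 had 13.9 to 17.1 CPM in the 6 libraries at 13 DAP, against 18.7 to 32 CPM in the 6 at 11 DAP, a log2 fold change of -0.72 ± 0.12 with adjusted p = 0.015. The change was -0.73 ± 0.17 in BM (adjusted p = 0.17) and -0.71 ± 0.17 in MB (adjusted p = 0.0034), and the difference of -0.02 ± 0.24 had adjusted p = 0.97. Ferritin rose by 0.57 in BM and 1.5 in MB, and its difference of -0.93 was called between the crosses. For most genes of the joint comparison the MB libraries moved farther. Of the 782 higher genes the BM change was smaller in 95%, and of the 612 lower genes in 92.2%, against 77.5% of all genes tested. The joint call that chose these genes used the same libraries, which can raise such shares, so the excess over 77.5% is no separate evidence.

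The joint count rested on single libraries. Without 1 MB library at 13 DAP it was 257, 170 or 106, and without 1 MB library at 11 DAP it was 180, 185 or 203. Without the first BM library at 11 DAP it was 3066, without the first BM library at 13 DAP 2171, and without the third BM library at 13 DAP 874. Of the 24 largest changes with a symbol, 20 lost the call in at least 1 of these 12 fits, and fer1, TUB8 and cyclin8 were among the 4 that kept it in all of them.

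The 2 crosses were far apart when each was taken alone. Within BM, 18 genes differed between 13 and 11 DAP (0.0827% of those tested), 14 higher (0.0643%) and 4 lower (0.0184%). Within MB, 8217 differed (37.7%), 4318 higher (19.8%) and 3899 lower (17.9%), and 608 were higher (2.79%) and 1523 lower (6.99%) with a log2 fold change of 1 or more. The 3 libraries at 13 DAP did not overlap the 3 at 11 DAP for 12.8% of the genes tested in BM and 50% in MB. Statements of overlap below stand beside these shares, and genes named for the largest change within a cross were chosen without overlap in it. The median absolute log2 fold change was 0.13 in BM and 0.36 in MB, while the median standard error was 0.16 in both. The fit shared 1 estimate of each gene's spread between the crosses, so similar standard errors follow from it. With each cross taken alone, the common biological coefficient of variation was 15.9% in BM and 12.8% in MB. The change itself differed between the crosses for 4306 genes (19.8%): the BM change was above the MB change in 1854 (8.51%) and under it in 2452 (11.3%). In 1 fit over all 48 libraries 2996 genes were called within MB, 30.2% of them higher against 52.5%, and the median of all genes within MB was -0.109 against -0.02. That fit called 700 genes between crosses, with BM above MB in 71.3% against 43.1%, and 18.4% of its joint calls were higher against 56.1%. Within BM it called 0 genes (edgeR, 494 at an unadjusted p under 0.05), where DESeq2 on the 12 libraries called 93 and limma on log2(FPKM + 1) 9. At an unadjusted p under 0.05, 1631 genes differed within BM in the 12 libraries.

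The genes that moved most in MB moved little in BM. The 1523 genes lower in MB had a median log2 fold change of -0.23 in BM and -1.76 in MB, with the same sign in 75.8%. The 608 genes higher in MB had a median of -0.04 in BM and 1.3 in MB, with the same sign in 43.6%. Over all genes tested the same sign was found in 56.2%. The difference between crosses was called for 51.5% of the lower and 76.6% of the higher genes, against 19.8% of all genes tested. These genes were chosen by the MB libraries, which the difference also uses. That choice raises such shares and makes the BM change smaller beside the MB change. Pearson's r between the BM and MB changes was 0.227 across genes, which are not independent replicates. The group means of BM and MB had r = 0.977 at 13 DAP, against 0.985 at 11 DAP.

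**Figure D2:**
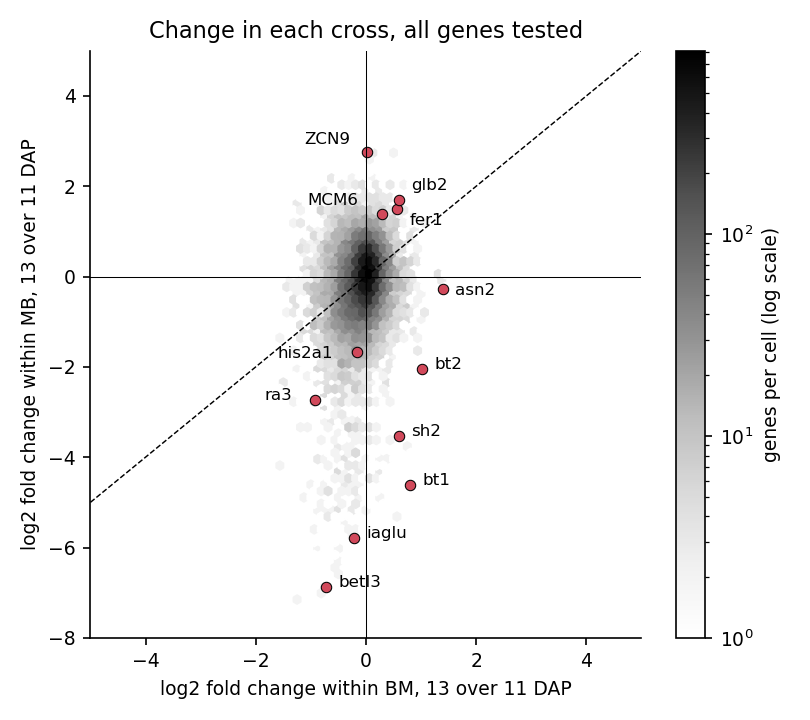
Each cell of the grid counts genes by the log2 fold change of 13 over 11 DAP within BM (horizontal) and within MB (vertical), with named genes marked and a dashed line where both changes are equal. The cloud is spread along the MB axis, and bt2, sh2 and bt1 lie at a positive BM change and a negative MB change.

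The count within BM also rested on single libraries. Without the third BM library at 11 DAP, the one nearest to 13 DAP, 441 genes were called within BM, 179 higher and 262 lower. Without the second BM library at 11 DAP 6 were called, without the second BM library at 13 DAP 9, without the third 11 and without the first 12. Of the 441 genes, 57 were also higher and 63 also lower in MB, while 27 higher ones were lower in MB and 93 lower ones were higher in MB, and the BM and MB changes then had r = -0.01 across genes. The common biological coefficient of variation was 12.1% in BM at 13 DAP, against 19% in BM at 11 DAP, and 12.7% in MB at 13 DAP, against 12.9% in MB at 11 DAP.

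Of the 18 genes called within BM, 7 had an informative symbol, and all 7 were higher at 13 DAP. They were asn2, an asparagine synthetase, the ADP-glucose pyrophosphorylase subunit gene bt2, fer1, the sulfite reductase gene sir, the homocysteine methyltransferase gene HMT-3, the glutathione transferase gene gst30 and a gene listed as sfp1. The asparagine synthetase asn2 had 117, 105 and 101 CPM in BM at 13 DAP, against 36.3, 42.7 and 46.5 CPM in BM at 11 DAP. In MB it had 88.5, 94 and 92.6 CPM at 13 DAP, against 109, 96.2 and 144 CPM at 11 DAP. The BM libraries at 13 DAP were all above those at 11 DAP, by 1.39 ± 0.13 (adjusted p = 3.7e-05), and the MB libraries at 13 DAP were all under those at 11 DAP, by -0.28 ± 0.13 with adjusted p = 0.088. The difference between the crosses was 1.67 ± 0.18 with adjusted p = 1.4e-05. Without the third BM library at 11 DAP the BM changes were 1.47 ± 0.15 for asn2, 1.11 ± 0.16 for bt2 and 0.68 ± 0.1 for fer1, and they were 1.68 for sfp1, 1.25 for gst30, 0.64 for HMT-3 and 0.5 for sir, all called.

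The gene listed as sfp1 had 42.9, 38.8 and 47.2 CPM in BM at 13 DAP, against 16.1, 11.2 and 16.7 CPM in BM at 11 DAP. It rose by 1.58 ± 0.14 in BM (adjusted p = 3.7e-05), was at -0.3 ± 0.14 in MB (adjusted p = 0.11), and the difference was 1.87 ± 0.2 (adjusted p = 1.1e-05). HMT-3, which makes methionine from homocysteine, rose in both crosses, with 198, 198 and 221 CPM at 13 DAP against 142, 126 and 152 CPM at 11 DAP in BM, and 191, 175 and 175 CPM against 152, 152 and 141 CPM in MB. Its log2 fold changes were 0.58 ± 0.09 in BM (adjusted p = 0.0081) and 0.34 ± 0.09 in MB (adjusted p = 0.0057). The sulfite reductase gene sir, which supplies reduced sulphur, had 380, 371 and 413 CPM in BM at 13 DAP, against 304, 250 and 240 CPM at 11 DAP, and rose by 0.58 ± 0.1 (adjusted p = 0.032). In MB it was at 0.22 ± 0.1 with adjusted p = 0.086, and the difference between the crosses was 0.35 with adjusted p = 0.087.

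Only 4 genes were called the same way in both crosses: HMT-3 and fer1 were higher, and GRMZM2G166141 and GRMZM2G003909, which have no informative symbol, were lower. GRMZM2G166141 had 5.2, 7.37 and 5.22 CPM in BM at 13 DAP, against 17.9, 17.3 and 17.1 CPM at 11 DAP, and 1.18, 1.87 and 1.08 CPM in MB at 13 DAP, against 4.8, 8.58 and 9.58 CPM at 11 DAP. It fell by 1.52 on the log2 scale in BM (adjusted p = 0.007) and by 2.39 in MB (adjusted p = 6.4e-06). A further 8 genes were called in opposite directions, 6 of them higher in BM and lower in MB. GRMZM2G162486 is an example, with 29, 28.5 and 28.1 CPM in BM at 13 DAP against 12.2, 10.4 and 12.2 CPM at 11 DAP, and 9.34, 8.93 and 10.1 CPM in MB at 13 DAP against 18.7, 23.3 and 23.2 CPM at 11 DAP. It rose by 1.33 ± 0.12 in BM and fell by 1.14 on the log2 scale in MB (adjusted p = 3.7e-05 and 4.3e-06). Without the third BM library at 11 DAP the BM change of GRMZM2G162486 was 1.36 with adjusted p = 6e-05.

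Calls within BM differed in how well they held when 1 of the 12 libraries was left out. The calls of asn2, sfp1, GRMZM2G162486, GRMZM2G427054, GRMZM2G103812 and GRMZM2G052948 held in all 12 fits, though the fit over 48 libraries called none of the 18. The other 12 did not: fer1 kept the call in 4 of 12 fits (highest adjusted p = 0.36), gst30 in 4 (0.41), sir in 6 (0.22), bt2 in 9 (0.075) and HMT-3 in 10 (0.083). GRMZM2G052948 had 1 count over the 3 BM libraries at 13 DAP, against 101 over those at 11 DAP, a ratio of 0.00899 with a 95% counting interval of 0.000225 to 0.0512.

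The list of starch genes had 17 tested members. Within BM 1 rose and none fell, with a median log2 fold change of 0.22 against -0.01 for all genes tested, and within MB 7 rose and 5 fell, with a median of 0.33 against -0.02. In this and the lists below, the counts within MB stand beside 19.8% higher and 17.9% lower of all genes tested. Over the alternative settings 0 to 9 rose and 4 to 6 fell within MB. With each library's trend on gene length removed, as described below, 4 rose and 5 fell within MB, with a median of 0.13. The 5 that fell in MB were bt1, which carries ADP-glucose into the amyloplast, sh2 and bt2, which code for the large and small subunit of ADP-glucose pyrophosphorylase, waxy1, the granule-bound starch synthase, and the sucrose synthase gene sh1. All 5 differed between the crosses. Those that rose in MB included Agp2 and agpsl1, further ADP-glucose pyrophosphorylase genes, and the debranching enzyme gene zpu1.

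The large-subunit gene sh2 had 129, 193 and 190 CPM in BM at 13 DAP, against 135, 97.7 and 110 CPM in BM at 11 DAP. In MB it had 17.5, 17.1 and 17.1 CPM at 13 DAP, against 186, 235 and 199 CPM at 11 DAP. The BM groups overlapped and the MB groups did not, and the log2 fold changes were 0.6 ± 0.15 in BM (adjusted p = 0.25) and -3.52 ± 0.17 in MB (adjusted p = 1e-08), with a difference of 4.12 ± 0.23 (adjusted p = 1.1e-07).

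The small-subunit gene bt2 had 171, 247 and 249 CPM in BM at 13 DAP, against 112, 96.2 and 130 CPM at 11 DAP. The MB libraries had 45.5, 43 and 42.5 CPM at 13 DAP, against 168, 216 and 181 CPM at 11 DAP. It was the 1 gene with an informative symbol that was called in opposite directions: it rose by 1.01 ± 0.14 in BM (adjusted p = 0.007) and fell by 2.04 on the log2 scale in MB (adjusted p = 1.4e-07), with a difference of 3.05 ± 0.2 (adjusted p = 3.3e-07). The BM call was lost without the first BM library at 11 DAP (adjusted p = 0.055), the second BM library at 11 DAP (0.075) or the second BM library at 13 DAP (0.055). Across the manual ages of 5, 7, 9, 11 and 13 DAP its mean was 17, 22.3, 53.4, 113 and 222 CPM in BM, and 26, 28.3, 40.6, 188 and 43.7 CPM in MB. The MB mean at 13 DAP was thus close to that at 9 DAP.

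The transporter gene bt1 had 66.1, 81.9 and 57.7 CPM in BM at 13 DAP, against 30.7, 43.5 and 45.6 CPM at 11 DAP, and 4.47, 4.75 and 3.4 CPM in MB at 13 DAP, against 77.3, 109 and 140 CPM at 11 DAP. The groups did not overlap in either cross. It was at 0.8 ± 0.22 in BM (adjusted p = 0.36) and fell by 4.62 on the log2 scale in MB (adjusted p = 9.5e-07). The granule-bound synthase gene waxy1 fell by 3.07 in MB (adjusted p = 1.3e-05) and the difference between crosses was 3.33 ± 0.35 (adjusted p = 0.00017). Agp2 went the other way, with 602, 643 and 653 CPM in BM at 13 DAP against 595, 464 and 472 CPM at 11 DAP, and 1150, 886 and 914 CPM in MB at 13 DAP against 528, 543 and 541 CPM at 11 DAP. It rose by 0.94 ± 0.11 in MB (adjusted p = 7.2e-06) and by 0.64 ± 0.12 in the joint comparison (adjusted p = 0.016).

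**Figure D3:**
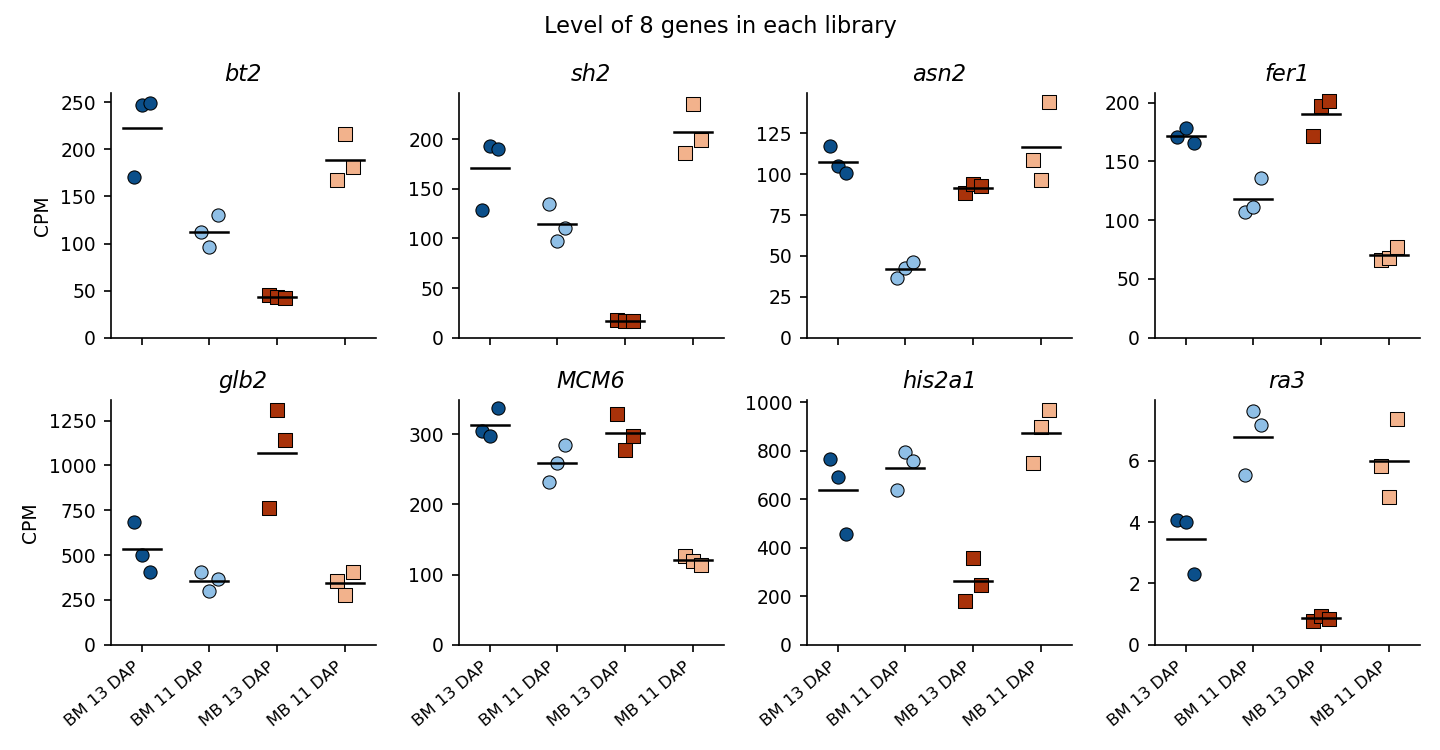
CPM of 8 genes in each of the 12 libraries, in 4 groups by cross and age, with a bar at each group's mean. In MB at 13 DAP bt2 lies at 42.5 to 45.5 CPM and sh2 at 17.1 to 17.5 CPM, under every other library.

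Genes listed for the transfer layer and the embryo-surrounding region were low in MB at 13 DAP. At 5 DAP the summed level of this list was higher in hand-collected embryos than in endosperm. The means were 13900 CPM in BM embryos and 2490 CPM in MB embryos, against 2650 CPM in BM and 552 CPM in MB endosperm. The list therefore did not mark endosperm apart from hand-collected embryos of that age. The list of transfer layer and embryo-surrounding genes had 15 tested members. Within BM none was called and the median log2 fold change was -0.51, and within MB 14 fell and none rose, with a median of -5.15. The difference between crosses was called for 12, all of them with BM above MB. The summed level of the list's 18 members was 469, 831 and 721 CPM in BM at 13 DAP, against 376, 576 and 1636 CPM in BM at 11 DAP, the highest being the third BM library at 11 DAP. In MB it was 20.2, 18.1 and 38.4 CPM at 13 DAP, against 1028, 634 and 526 CPM at 11 DAP.

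The cell wall invertase gene mn1, which splits incoming sucrose in the transfer layer, had 18.3, 24.7 and 16.1 CPM in BM at 13 DAP, against 15.8, 36.9 and 58.6 CPM at 11 DAP. In MB it had 0.157, 0 and 0.618 CPM at 13 DAP, against 31.8, 11.3 and 18.6 CPM at 11 DAP. The BM groups overlapped while the MB groups stood apart, and the fall in MB was 6.24 on the log2 scale, with a difference between crosses of 5.36. The transfer layer gene betl3 had 2 counts over the 3 MB libraries at 13 DAP, against 305 over those at 11 DAP, a ratio of 0.00703 with a 95% counting interval of 0.000847 to 0.0256. The transfer layer genes bap2 and betl10 fell by 6.06 and 6.5 on the log2 scale in MB, and esr2 of the embryo-surrounding region by 4.92. The auxin-conjugating enzyme gene iaglu had 0.0785, 0.576 and 0.386 CPM in MB at 13 DAP, against 15.9, 19.5 and 27.7 CPM at 11 DAP.

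A separate set, not an extension of the transfer layer and embryo-surrounding list, was drawn from the series itself. Its genes had at least 10 CPM in endosperm at 5 DAP. That level was at least 4 times their level in hand-collected embryos of that age. Of the 882 such genes tested none was called within BM, where the median log2 fold change was -0.15 against 0 for all other genes. Within MB 28 were higher and 413 lower, with a median of -0.89 against 0. They made up 1.48% of the 608 genes higher in MB, 22.2% of the 1523 lower ones, and 4.05% of all genes tested. The share of all counts from the 1048 genes that met this rule, tested or not, was 2.1% to 2.67% in BM at 13 DAP, against 2.27% to 2.68% in BM at 11 DAP, and 1.91% to 2.53% in MB at 13 DAP, against 2.9% to 3.74% in MB at 11 DAP. In endosperm at 5 DAP it was 12% to 14.5%. The part of endosperm RNA in the differences of starch, zein and other genes between MB at 13 and 11 DAP was not tested.

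**Figure D4:**
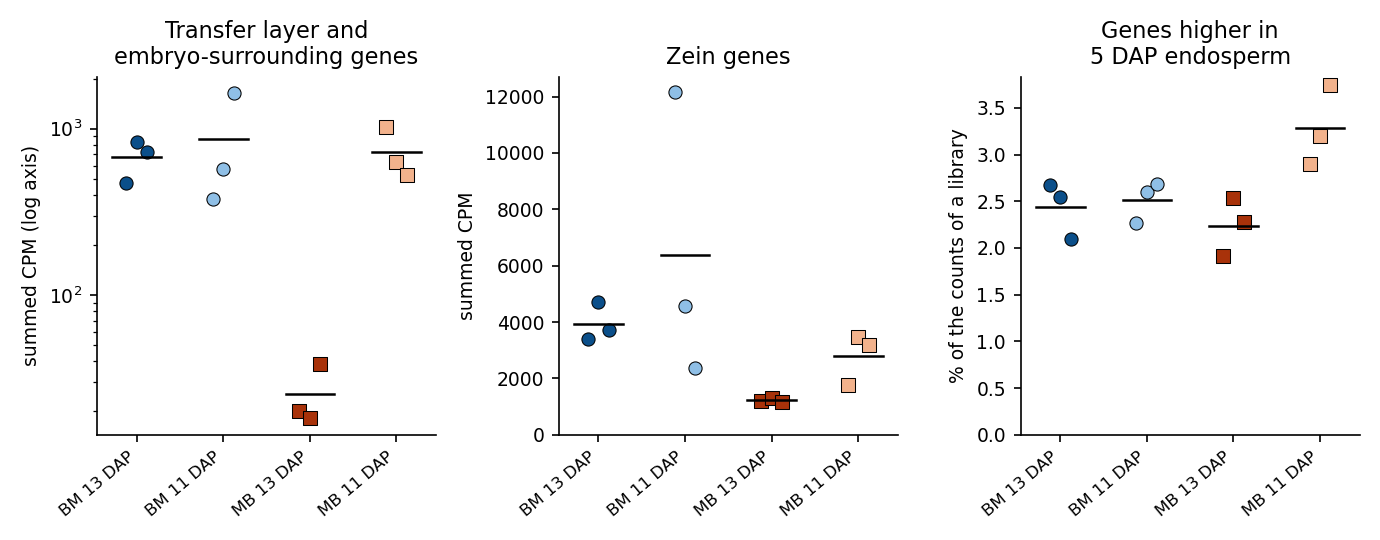
Summed CPM of transfer layer and embryo-surrounding genes (log axis), of zeins, and the percent of counts from genes higher in endosperm at 5 DAP, in each of the 12 libraries by cross and age. The transfer layer and embryo-surrounding sum lies at 18.1 to 38.4 CPM in MB at 13 DAP and at 376 CPM or more in every other library.

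The 24 tested zeins, the storage proteins of the endosperm, had none called within BM and 1 higher and 4 lower within MB, the lower ones at a share close to the 17.9% of all genes. Their log2 fold changes had a median of -0.7 in BM (range -4.64 to -0.2) and -0.62 in MB (range -3.33 to 2.78). The median difference between crosses was 0.06. The summed level of the zeins was 3395, 4699 and 3707 CPM in BM at 13 DAP, against 12150, 4555 and 2383 CPM at 11 DAP, and 1212, 1317 and 1166 CPM in MB at 13 DAP, against 1759, 3478 and 3186 CPM at 11 DAP. The BM level at 11 DAP ranged widely, with its first library the highest, and the MB groups did not overlap. The zein regulator gene o2 had 0.942, 0.792 and 1 CPM in MB at 13 DAP, against 17.9, 20.5 and 26.7 CPM at 11 DAP, and fell by 4.5 on the log2 scale (adjusted p = 1.5e-07). The legumin gene leg1 had 16.3, 31.6 and 23.1 CPM in MB at 13 DAP, against 338, 356 and 494 CPM at 11 DAP, and fell by 4 (adjusted p = 6.4e-06), with a difference between crosses of 4.04 ± 0.37.

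Among 13 tested embryo storage and late embryogenesis genes, 2 rose and 3 fell within MB, shares near those of all genes. The globulin gene glb2, listed at 0 CPM in endosperm at 5 DAP, had 683, 503 and 407 CPM in BM at 13 DAP, against 405, 299 and 364 CPM at 11 DAP. In MB it had 762, 1310 and 1140 CPM at 13 DAP, against 356, 275 and 406 CPM at 11 DAP. The groups did not overlap in either cross, with changes of 0.6 ± 0.25 in BM (adjusted p = 0.64) and 1.69 ± 0.26 in MB (adjusted p = 0.00066), and the difference of -1.09 had adjusted p = 0.058. The embryogenesis regulator gene lec1 had 23.2, 18 and 14.6 CPM in BM at 13 DAP, against 14.6, 20.1 and 38.2 CPM at 11 DAP. In MB it had 4.63, 2.59 and 4.63 CPM at 13 DAP, against 15.9, 23.3 and 20.3 CPM at 11 DAP, and fell by 2.27 on the log2 scale (adjusted p = 0.0013). The difference of 1.91 had adjusted p = 0.027 and lost the call in 7 of the 12 fits without 1 library. The maturation regulator gene vp1 was at 185, 154 and 114 CPM in BM and 100 to 156 CPM in MB at 13 DAP, against 121, 162 and 190 CPM in BM and 122 to 154 CPM in MB at 11 DAP, and was not called in either cross (adjusted p = 0.99 in each).

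Histone genes, whose transcripts follow DNA replication, fell in MB. Of 14 tested members none was called within BM (median log2 fold change -0.2), and 13 were lower and none higher within MB (median -1.32). The difference between crosses was called for 4. Their summed level was 5126, 4396 and 2902 CPM in BM at 13 DAP, against 3951, 5200 and 4962 CPM at 11 DAP, and 1353, 2653 and 1744 CPM in MB at 13 DAP, against 4521, 5267 and 5990 CPM at 11 DAP. The BM groups overlapped and the MB groups did not. The histone gene his2a1 had 180, 359 and 246 CPM in MB at 13 DAP, against 749, 899 and 967 CPM at 11 DAP, and fell by 1.67 on the log2 scale (adjusted p = 0.00091). The difference between crosses was 1.5 ± 0.37 (adjusted p = 0.019), and reached 0.054 without the third MB library at 11 DAP and 0.052 without the second BM library at 13 DAP.

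The replication helicase genes MCM6 and MCM7 were higher. MCM6 had 304, 298 and 337 CPM in BM at 13 DAP, against 232, 259 and 285 CPM at 11 DAP, and 329, 278 and 297 CPM in MB at 13 DAP, against 127, 120 and 114 CPM at 11 DAP. The low values were those of MB at 11 DAP, and the groups did not overlap in either cross. It rose by 1.39 ± 0.1 in MB (adjusted p = 4.2e-08), with a difference between crosses of -1.09 ± 0.14 (adjusted p = 5e-05), and MCM7 rose by 1.06 ± 0.1 in MB. Among 22 cell cycle genes none was called within BM, and 5 rose and 2 fell within MB, where 19.8% and 17.9% of all genes did. With the trend on gene length removed, as described below, 5 rose and 6 fell. The list's median within MB then went from 0.03 to -0.16. The 2 that fell without that step were cyclin8 and cyclin11, and cyclin8 had 57, 54.1 and 56.3 CPM in MB at 13 DAP, against 102, 116 and 126 CPM at 11 DAP. The polymerase clamp genes pcna1 and pcna2 were at 0.03 and 0.04 within MB, with adjusted p = 0.86 and 0.84.

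Of 32 tested ribosomal protein genes none was called within BM (median 0.05), and 1 was higher and 22 lower within MB (median -0.54), where 17.9% of all genes were lower. With each library's trend on gene length removed, as described below, 4 were higher and 13 lower (median -0.2). Their summed level was 7113, 7112 and 6769 CPM in BM at 13 DAP, against 6310, 7087 and 7096 CPM at 11 DAP, and 5258, 6004 and 6047 CPM in MB at 13 DAP, against 7406, 7942 and 8528 CPM at 11 DAP. The BM groups overlapped and the MB groups did not.

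The size of the change in MB moved with gene length. Over the 21752 genes with a length, Spearman's rho between the log2 fold change and gene length was -0.04 in BM and 0.37 in MB, across genes. Among the shortest of 5 equal groups, of median length 776 bases, the median log2 fold change was 0 in BM and -0.36 in MB, where 224 were higher and 1471 lower. Among the longest, of median length 3505 bases, it was -0.03 in BM and 0.3 in MB, where 1835 were higher and 248 lower. Taken against the mean of the 12 libraries, which holds all 4 groups, the correlation of level with length was -0.01, 0 and 0.15 in BM at 13 DAP, against 0.22, 0.11 and -0.05 in BM at 11 DAP. The MB values were 0.29, 0.17 and 0.24 at 13 DAP, against -0.19, -0.42 and -0.42 at 11 DAP.

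**Figure D5:**
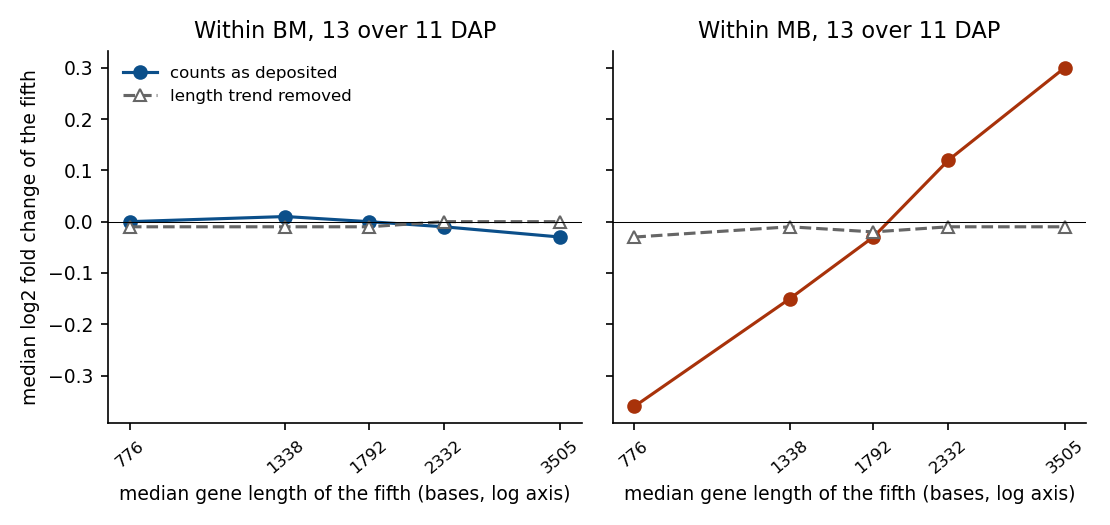
Median log2 fold change of 13 over 11 DAP for 5 groups of genes by length, in BM (left) and MB (right), as fitted and with each library's trend on gene length removed. In BM the median stays between -0.03 and 0.01 as fitted, and in MB it climbs with length between -0.36 and 0.3.

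Removing each library's trend on gene length left 16 genes called within BM, all among the 18, and 6950 within MB, of which 5592 were also called without the step. The joint count was then 1742 and the count that differed between crosses 2727. Of 14 histone genes 11 were still lower (median -1.11), all 15 transfer layer and embryo-surrounding genes were lower (median -4.8), and bt2, sh2, bt1, asn2, MCM6, fer1 and glb2 kept their direction.

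Of 17 tested cell wall genes, none was called within BM, and 9 rose and 4 fell within MB. The cellulose synthase gene CesA-1 had 86.3, 82.1 and 87.1 CPM in BM at 13 DAP, against 89.1, 100 and 68.1 CPM at 11 DAP, and 142, 134 and 127 CPM in MB at 13 DAP, against 71.6, 63.8 and 53.9 CPM at 11 DAP. It was at 0.01 ± 0.13 in BM (adjusted p = 0.99) and rose by 1.15 ± 0.13 in MB (adjusted p = 4.3e-06), with a difference of -1.14 ± 0.18 (adjusted p = 0.00037). The cell wall list's median of 0.44 within MB was 0.07 with the length trend removed, when 6 rose and 3 fell, and ran between -0.34 and 0.44 over the alternative settings. Of 41 auxin genes, 14 rose and 8 fell within MB, and 11 rose and 7 fell with the length trend removed. The auxin response factor genes ARF4 and ARF18 rose by 1.16 ± 0.11 and 1.04 ± 0.13, while the auxin synthesis gene yuc had 4.24, 7.05 and 5.48 CPM in MB at 13 DAP, against 106, 117 and 145 CPM at 11 DAP, and fell by 4.38 on the log2 scale.

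Of 18 tested meristem genes, none was called within BM (median -0.2), and 10 fell and none rose within MB (median -0.59). The list of 34 tested homeobox and YABBY genes had none called within BM, and 11 rose and 3 fell within MB (median -0.06). The homeobox gene kn1, which marks the shoot meristem, had 14.2, 13.3 and 13.2 CPM in MB at 13 DAP, against 20.8, 19.7 and 23.8 CPM at 11 DAP, and fell by 0.59 (adjusted p = 0.0093), and its difference between crosses of 0.3 had adjusted p = 0.39. The trehalose phosphate phosphatase gene ra3, which acts in inflorescence branching, had 4.08, 4.01 and 2.29 CPM in BM at 13 DAP, against 5.54, 7.62 and 7.15 CPM at 11 DAP. The MB libraries had 0.785, 0.936 and 0.849 CPM at 13 DAP, against 5.83, 4.8 and 7.36 CPM at 11 DAP. The groups were apart in both crosses, and it was at -0.93 ± 0.24 in BM (adjusted p = 0.26) and fell by 2.73 in MB (adjusted p = 3.2e-06), with a difference of 1.8 ± 0.39 (adjusted p = 0.0036). Among 17 tested MADS box genes, none was called within BM (median -0.96), and 8 fell and none rose within MB (median -1.18). In the joint comparison 6 were lower and none higher, where 2.81% of all genes were lower. The joint calls of m6, m27 and m28 held in all 12 fits without 1 library. Without the third BM library at 11 DAP, MADS4, m27 and m6 were also called lower within BM.

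The largest rises within MB among genes with a symbol included ZCN9, cipk31, GAD, HAK11 and pip2f. ZCN9, of the family of flowering regulators that includes florigen, had 7.67, 7.6 and 5.54 CPM in BM at 13 DAP, against 10.6, 8.08 and 2.65 CPM at 11 DAP, and 35.9, 77.8 and 42.6 CPM in MB at 13 DAP, against 6.24, 10.1 and 7.66 CPM at 11 DAP. The kinase gene cipk31 had 67.7, 58.9 and 60.2 CPM in MB at 13 DAP, against 15.3, 10.2 and 10.1 CPM at 11 DAP. Both groups of MB libraries stood clear of each other in both genes, with changes of 2.76 for ZCN9 and 2.45 for cipk31 and differences between crosses of -2.74 and -2.75. The difference of ZCN9 kept its call in 6 of the 12 fits without 1 library. The glutamate decarboxylase gene GAD, the potassium transporter gene HAK11 and the aquaporin gene pip2f rose by 2.04, 1.71 and 1.69 within MB. All 16 of the largest changes within MB, 8 each way, kept their call in all 12 fits without 1 library. They were chosen as large, called and without overlap in MB, which favours keeping the call. Their record is therefore not comparable with that of the joint changes or the genes called within BM.

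The means at 9 DAP were set beside these changes as a description. Of the 4318 genes higher in MB at 13 than at 11 DAP, 3394 had an 11-DAP mean below both the 9- and the 13-DAP mean, and of the 3899 lower genes 3249 had an 11-DAP mean above both. These are 78.6% and 83.3%, where over all genes tested the 11-DAP mean was outside the other 2 for 53.8% in BM and 70% in MB. Of the 608 genes higher with a log2 fold change of 1 or more the share was 59.7%, under that of all genes, and of the 1523 lower ones 81.2%. The group mean of MB at 9 DAP had r = 0.962 with MB at 13 DAP, against 0.968 with MB at 11 DAP. The choice of genes by the 11-DAP libraries raises such shares. For MCM6 the MB means at 9, 11 and 13 DAP were 320, 120 and 301 CPM, for sh2 30.8, 207 and 17.2 CPM, and for iaglu 3.04, 21.1 and 0.347 CPM. The transfer layer genes followed another course, as bap2 shows with 288, 150 and 2.17 CPM. Genes that kept a single direction included glb2, with means of 111, 356 and 531 CPM in BM and 93.4, 346 and 1070 CPM in MB, and Agp2, with means of 363, 510 and 633 CPM in BM and 436, 537 and 985 CPM in MB.

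Some genes were called within BM once the third BM library at 11 DAP was left out, and those named here were chosen for that, so its level in them is no further evidence that it stood apart. The sucrose transporter gene sut1 had 43.5, 38 and 36.2 CPM in BM at 13 DAP, against 10.8, 11.5 and 76.4 CPM at 11 DAP. The superoxide dismutase gene sod9 had 257, 275 and 250 CPM at 13 DAP, against 111, 120 and 279 CPM at 11 DAP, and Hsp70 had 187, 208 and 171 CPM at 13 DAP, against 83.7, 92.3 and 176 CPM at 11 DAP. In each, the third library at 11 DAP lay within or above the 13-DAP range. Without it the log2 fold changes within BM were 1.83 ± 0.16 for sut1 (adjusted p = 1.1e-05), 1.19 ± 0.12 for sod9 (adjusted p = 2.7e-05) and 1.12 ± 0.13 for Hsp70 (adjusted p = 0.00016). Among the lower, TUB8 changed by -0.94 ± 0.13 (adjusted p = 5e-04) and cyclin8 by -0.46 ± 0.1 (adjusted p = 0.024). The same library had the highest transfer layer and embryo-surrounding sum of the 12, and the part of this in its level of other genes was not tested.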

How the data were processed

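The authors deposited raw counts and FPKM per gene model in 1 table. The submitters' processing notes name Cufflinks 2.2.1, TopHat, HTSeq and FastQC. Settings, build, annotation and strandedness were not given in the sources used here. The deposited FPKM served to derive gene length and for 1 alternative.

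Counts were tested over 21774 genes with edgeR 4.0.16 (R 4.3.3): filterByExpr, TMM and a robust quasi-likelihood fit, two-sided, Benjamini-Hochberg adjusted, threshold 0.05. The joint comparison fitted cross plus age, and the others 1 mean per group. A RefSeq gene table named 18775 of 39656 models (47.3%), 2641 informatively. Members and gene lists were chosen with earlier results of these data known. Named are the 12 largest joint changes each way, the 8 largest within a cross (groups not overlapping) and between crosses (all with adjusted p under 0.05, 10 CPM or more in the higher group and an informative symbol), list members, and genes called within BM. Gene length came from counts over FPKM where a library had at least 10 counts. Its trend per library (lowess, span 0.3) was removed as an alternative chosen after seeing the data. Intervals cover counting error only. DESeq2 1.42.0 and limma 3.58.1 served as alternatives. The code was tested on simulated data.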

Additional observations from a re-analysis of the deposited data

Results flagged for a closer look

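For 4306 genes the change between 13 and 11 DAP differed between BM and MB by edgeR's test of the difference, which is 19.8% of the genes tested. Among the largest differences with BM above MB were betl3 (6.16 on the log2 scale, BM change minus MB change), betl10 (5.98), bap2 (5.6), iaglu (5.59), bt1 (5.43), mn1 (5.36), meg2 (5.18) and the male sterility gene ms8 (5.04), with bt2 at 3.05. Among the largest with BM under MB were cipk31 (-2.75), ZCN9 (-2.74), GAD (-2.14), the gene listed as TOR (-1.98), Tie-dyed2 (-1.93), bZIP9 (-1.89), the benzoxazinoid pathway gene BX4 (-1.85) and the mediator subunit gene Med13 (-1.69).

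For Tie-dyed2 the values were 14.9, 13.6 and 15 CPM in BM at 13 DAP, against 26.8, 29.5 and 12.3 CPM at 11 DAP, and 21.4, 25.4 and 25.7 CPM in MB at 13 DAP, against 10.8, 11.4 and 8.66 CPM at 11 DAP. The third BM library at 11 DAP lay under its BM group mates in Tie-dyed2. Of these genes, BX4 and meg2 lost the call with the length trend removed (adjusted p = 0.087 and 0.069). Among the 12 fits without 1 library, BX4 kept the call in 1 (highest adjusted p = 0.099) and meg2 in 2 (0.096). ZCN9 kept it in 6 (0.06) and betl10 in 11 (0.051).

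Genes called in opposite directions in the 2 crosses, beside bt2, were GRMZM2G162486, with a difference of 2.46, GRMZM2G127342 with 1.94, GRMZM2G427054 with 1.77, GRMZM2G051270 with 1.18, GRMZM2G015869 with 1.05, GRMZM2G149576 with -0.81 and GRMZM2G052948 with -8.09. The last is a fitted value against 1 count in BM at 13 DAP and is no bound. With the length trend removed, GRMZM2G051270, GRMZM2G149576 and GRMZM2G015869 were no longer called in MB, and GRMZM2G015869 no longer in BM.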

How the results depend on the processing

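Of 5014 values of named genes under the alternatives chosen at the start, 4473 kept their direction and call, 541 kept their direction and lost the call, and 0 reversed. Of 256 with the length trend removed, 235 kept the call, 21 lost it and 0 reversed, and the count that differed between crosses was 2727. Within BM the count was 40 with no filter on low counts, 93 with DESeq2, 9 with limma on log2(FPKM + 1), 8 with the 6 BM libraries alone and 0 in 1 fit over all 48 libraries (edgeR, 494 at an unadjusted p under 0.05). That fit called 2996 genes within MB, 30.2% of them higher against 52.5%, with a median over all genes of -0.109 against -0.020, and 700 between crosses, 71.3% of them with BM above MB against 43.1%. Its joint count was 1342, with 18.4% higher against 56.1%. The joint count was 3469 with DESeq2 and 5640 as the average of the BM and MB changes. Counts with a log2 fold change of at least 1 were 199 jointly, 11 within BM, 2131 within MB and 1426 between crosses. Without 1 library the counts ran between 106 and 3066 jointly, 6 and 441 within BM, 6601 and 8697 within MB, and 2981 and 5116 between crosses.

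Replicate numbers share only a number: deviations of same-numbered libraries correlated at -0.321, -0.025 and -0.29 in BM and 0.25, -0.017 and -0.007 in MB. With the replicate block the counts were 210 jointly, 14 within BM, 7815 within MB and 4008 between crosses. Values under 1 CPM rest on few counts, and 3 libraries a group set the precision.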

Other observations

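Further lists were counted within MB, where 19.8% of all genes tested were higher and 17.9% lower at 13 DAP. Of 41 tested genes of abscisic acid signalling, none was called within BM, and 6 rose and 15 fell within MB. The receptor genes PYL8, PYL11 and PYL6 fell by 3.41, 3.39 and 3.32 on the log2 scale, while PYL9 rose by 0.91 ± 0.17. Of 21 cytokinin genes 5 rose and 4 fell, and of 8 gibberellin and ethylene genes 2 rose and 1 fell. Of 31 lipoxygenase and jasmonate genes, 14 fell and 3 rose within MB. Of 31 oxidative stress genes, 9 fell and 2 rose within MB, and with the length trend removed 3 fell and 5 rose. Of 38 MYB genes 14 fell and 2 rose, of 28 bHLH genes 12 fell and 5 rose, of 23 ethylene response factor genes 8 fell and 2 rose, and of 17 NAC genes 5 fell and 1 rose. None of 11 tested WRKY genes was called in either cross.

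Of 60 chromatin genes 19 were higher and 8 lower within MB. The polycomb gene fie1, which the endosperm expresses from the maternal allele, was 1 of the 8 lower ones, with 4.4, 9.49 and 9.02 CPM in BM at 13 DAP, against 11.8, 9.16 and 8.59 CPM at 11 DAP, and 0.628, 0.864 and 0.309 CPM in MB at 13 DAP, against 11.7, 12.2 and 12.3 CPM at 11 DAP. It fell by 4.24 in MB (adjusted p = 1.9e-07), with a difference between crosses of 3.9. Of 12 oil synthesis genes 5 rose within MB, the acetyl-CoA carboxylase gene Acc-1 by 1.05 ± 0.13, and 1 fell. Of 16 nitrogen genes 7 rose and 1, the glutamine synthetase gene gln2, fell. With the length trend removed, 8 oil synthesis genes rose and 1 fell, and 4 nitrogen genes rose and 2 fell. The median of the nitrogen genes then went from 0.31 to 0.03.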
